A study of Mus musculus with 82 samples.

Results

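Accessible regions that carried none of 4 profiled histone marks were examined in purified mouse hematopoietic stem cells (HSCs), young and old. The ATAC-seq tables list 127695 consensus regions, and a region was kept where it shared no base pair with any listed peak or domain of H3K27ac, H3K4me3, H3K27me3 or H3K36me3. This rule left 38299 unmarked regions, 30.0% of the total, of which 3 lie on the mitochondrial genome. The rule used the positions of peaks of both ages and no count of accessibility. H3K9me3, which the study also profiled, was not part of the rule. The study profiled chromatin and mRNA of LSK CD34- Flk2- CD150+ HSCs sorted from C57BL/6J male mice. Young HSCs (YHSCs) came from mice of 3 to 4 months bought from a breeder and old HSCs (OHSCs) from mice of 24 to 26 months of an aged rodent colony, so age and source cannot be told apart. Accessibility was read from 4 young and 4 old ATAC-seq libraries, mRNA from 4 young and 8 old libraries, and H3K27ac from 2 libraries of each age. A further 4 old ATAC-seq count tables matched no listed sample and were not used here. For mRNA, young mice were pooled and old mice were taken singly. The labels tie no library to a numbered animal, so the p-values measure the spread between these libraries, which may be technical.

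ATAC-seq cuts DNA where nucleosomes are absent or loosely held, and it reads promoters, enhancers and sites bound by insulator proteins alike. H3K27ac marks active enhancers and promoters, H3K4me3 marks promoters, H3K36me3 covers transcribed gene bodies, and H3K27me3 is laid down by Polycomb over silenced genes. A region can be accessible without any of these. The best known such sites are held by CTCF, a zinc finger protein that stops cohesin from extruding chromatin loops and so sets the borders of loops and domains. Sequence-specific factors of blood cells, such as AP-1, RUNX, GATA and the ETS factor PU.1, can also open chromatin at sites without a strong active mark.

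The sequences below are stretches of 8 unmarked regions that the results return to. They were read from the mm10 (GRCm38) reference, 5′ to 3′ on the strand given, with 60 bases on each side of a motif match in capitals. The first 4 lie in regions that were more accessible in OHSCs and hold an AP-1 match (TGANTCA) or a RUNX match (TGTGGTT).
Pcdh15 intron, AP-1, chr10:74148137-74148263, plus strand: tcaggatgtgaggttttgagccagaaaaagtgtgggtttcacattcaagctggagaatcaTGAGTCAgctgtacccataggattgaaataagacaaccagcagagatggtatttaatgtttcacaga
Intergenic, nearest Kcnh8, RUNX, chr17:52996297-52996423, minus strand: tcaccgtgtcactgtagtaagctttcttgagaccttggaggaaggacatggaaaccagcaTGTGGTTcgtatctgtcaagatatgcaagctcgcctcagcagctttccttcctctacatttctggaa
Intergenic, nearest Snx7, RUNX, chr3:118031619-118031745, plus strand: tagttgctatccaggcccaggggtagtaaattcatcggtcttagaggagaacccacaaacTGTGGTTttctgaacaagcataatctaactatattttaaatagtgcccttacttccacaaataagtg
Intergenic, nearest Alcam, AP-1, chr16:52470376-52470502, plus strand: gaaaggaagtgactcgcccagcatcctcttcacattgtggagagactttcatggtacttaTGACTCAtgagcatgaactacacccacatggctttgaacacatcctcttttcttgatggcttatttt

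The next pair was less accessible in OHSCs. The first holds none of the searched motifs and is shown as the 120 bases around its middle, and the second holds an ERG/FLI1 match (ACAGGAAG).
Cers6 intron, chr2:69047453-69047572, plus strand: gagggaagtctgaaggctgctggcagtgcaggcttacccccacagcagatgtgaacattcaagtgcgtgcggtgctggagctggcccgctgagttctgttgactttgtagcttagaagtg
Intergenic, nearest Nap1l1, ERG/FLI1, chr10:111408046-111408173, minus strand: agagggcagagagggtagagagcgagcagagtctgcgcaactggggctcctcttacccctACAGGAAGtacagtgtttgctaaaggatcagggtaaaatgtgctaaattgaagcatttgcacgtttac

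The last pair holds a CTCF match (CCANNAGGNGGC) and was called in neither direction. These regions were chosen after their values were seen, as accessible unmarked regions with this pattern.
Intergenic, nearest Itih5, CTCF, chr2:10142820-10142951, plus strand: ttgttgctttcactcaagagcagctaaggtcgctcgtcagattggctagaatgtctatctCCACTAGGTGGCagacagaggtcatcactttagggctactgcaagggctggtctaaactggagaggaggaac
Intergenic, nearest Cast, CTCF, chr13:74854493-74854624, minus strand: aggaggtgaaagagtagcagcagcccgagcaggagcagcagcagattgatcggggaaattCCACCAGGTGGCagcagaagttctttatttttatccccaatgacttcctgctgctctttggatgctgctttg

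Unmarked regions were shorter, less accessible and farther from genes than the consensus regions as a whole. Their median length was 376 bp, against 501 bp over all regions, and their median GC content was 45.0%, against 47.8%. The median accessibility was 1.75 counts per 1000000 counted reads (CPM) for unmarked regions and 2.87 CPM for all regions. Per length the gap was smaller, at 4.55 and 5.75 CPM per kb. The median distance from the middle of a region to the nearest curated RefSeq transcription start was 39720 bp for unmarked regions and 22594 bp for all regions. By place, 54.8% of unmarked regions were intergenic, 40.04% intronic and 3.49% exonic, and 1.67% (639 regions) lay in a promoter, taken as 1000 bp upstream to 100 bp downstream of a start. The same shares over all regions were 35.7%, 47.1%, 8.77% and 8.43%. The middle of the region fell in a repeat in 16.7% of unmarked and 13.9% of all regions. Regions with H3K36me3 alone (333 bp, 1.62 CPM) and with H3K27me3 (360 bp, 1.63 CPM) had lower medians still, so the contrast in length and accessibility was with the H3K4me3 (918 bp, 11.1 CPM) and H3K27ac regions (689 bp, 4.39 CPM).

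The marks were often close by, since the Polycomb and gene body domains cover much of the genome (731 Mb for H3K27me3 and 560 Mb for H3K36me3, against 40.7 Mb for H3K27ac and 40.6 Mb for H3K4me3). Of the unmarked regions, 22.1% lay within 1 kb of a mark, 73.9% within 5 kb and 87.8% within 10 kb. The median distance was 7818 bp to H3K36me3, 8705 bp to H3K27me3, 15947 bp to H3K27ac and 24234 bp to H3K4me3. At the edge of the rule, the 740 regions that missed a mark by 100 bp or less had a median of 3.11 CPM over the 450 that passed the filter on low counts. The 855 regions that overlapped a mark by 100 bp or less had 3.57 CPM over 530. The age calls defined below were 12.2% gained and 4.44% lost just outside a mark and 8.87% and 1.89% at the small overlaps.

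OHSCs had a larger share of their counted reads in unmarked regions than YHSCs. Over the nuclear genome the share was 11.6%, 11.4%, 11.4% and 11.4% in the YHSC libraries and 12.8%, 13.2%, 13.0% and 12.7% in the OHSC libraries. Every OHSC library lay above every YHSC library. The YHSC mean was 11.5% ± 0.112 and the OHSC mean 12.9% ± 0.199 (SD, 4 libraries each). With the mitochondrial regions counted, the means were 16.2% ± 0.731 and 17.8% ± 0.248, and the mitochondrial regions alone took 4.63 to 6.49% of reads in YHSCs and 5.32 to 6.07% in OHSCs. The median unmarked region had 1.65 to 1.68 CPM in the YHSC libraries and 1.90 to 1.99 CPM in the OHSC libraries, after scaling by the trimmed mean of M-values (TMM). In bulk libraries, more cells with a region open and more openness per cell cannot be told apart.

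For the test of single regions, those above 1.5 CPM in at least 4 libraries were kept, which left 21957 unmarked regions (57.3%) among 89245 regions of all kinds. A call of gained or lost in OHSCs needed a change of more than 1.5-fold together with an adjusted p under 0.01 in edgeR's quasi-likelihood test, adjusted over all 89245. Unmarked regions were called gained far more often than lost. The gained regions numbered 3537 (16.1%) and the lost regions 630 (2.87%), so that 84.9% of the called regions were gains. The authors merged the consensus list from peaks of young and old replicates, and the study had more old than young ones. Weak regions open only in OHSCs may thus have been listed more readily, and the part of this in the balance was not tested. Over all tested regions, 10.1% were called gained and 2.90% lost. The median log2 fold change (old over young) was 0.10 for unmarked regions and -0.01 for all tested regions.

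The call shares of the other kinds of region lay on both sides. H3K27ac regions without H3K4me3 were called gained in 17.3% of 10938 tested and lost in 3.36%. H3K27me3 regions without the active marks were gained in 13.6% and lost in 3.40%, and regions with H3K36me3 alone in 10.1% and 3.95%. H3K4me3 regions, 25.97% of which lay in a promoter, had the lowest share of gains, 2.77%, with 2.26% lost. Unmarked regions thus lay near the H3K27ac regions in their call shares and apart from the H3K4me3 regions.

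The libraries separated by age at more unmarked regions than at regions in general, in the upward direction. All OHSC libraries lay above all YHSC libraries at 23.1% of tested unmarked regions, against 17.0% of all tested regions, and below them at 6.47%, against 12.4%. H3K27ac regions without H3K4me3 separated upward more often still, at 28.4%. Of the called regions, 3313 of the 3537 gained and 535 of the 630 lost had libraries that did not overlap between ages, and regions that passed the filter on low values through 1 age alone are among them. GC content moved with the call, and its part in the result was not tested beyond an offset fitted per library. With that offset, 2788 unmarked regions (12.7%) were gained and 835 (3.80%) lost, beside 8.38% and 3.29% of all tested regions, and the median log2 fold change was 0.02. Without YHSC library 1, 407 regions were called lost.

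In the fit without the GC offset, the gained regions were long, AT-rich and far from genes, and the lost regions were closer to them. The median length was 631 bp for gained, 474 bp for lost and 511 bp for the other tested unmarked regions. The median GC content was 42.7%, 48.1% and 45.4% in the same order. The median distance to a start was 71868 bp for gained, 19950 bp for lost and 29870 bp for the others. Promoters made up 0.905% of the gained, 3.81% of the lost and 2.31% of the other regions. The GC profile of the lost regions depended on the fit. Over 5 bins of GC content, the lost share was 1.09% in the poorest and 5.10% in the richest. With the GC offset it was 3.87% and 3.62%.

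Motif matches were sought on both strands in the 300 bp around the middle of each region, and a match describes the letters and not a bound factor. The patterns were CCANNAGNNGGC for CTCF, TGANTCA for AP-1, TGTGGTT for RUNX, AGATAAG for GATA, GAGGAAGT for PU.1, ACAGGAAG for ERG/FLI1, TTGCNNAA for C/EBP, GAAANNGAAA for IRF and CAGCTG for the E-box. The PU.1 and ERG/FLI1 patterns share the letters AGGAAG, so 1 stretch can match both. The CTCF pattern was present in 9.30% of unmarked and 8.55% of all regions, the AP-1 pattern in 15.6% and 12.7%, and the RUNX pattern in 14.5% and 12.3%. The GATA pattern was present in 5.92% of unmarked and 5.03% of all regions, and the PU.1 pattern in 8.57% and 7.21%. CTCF matches were most frequent in H3K27me3 regions (17.2%) and regions with H3K36me3 alone (11.8%), and least frequent in H3K27ac regions (1.67%). The pattern of REST, which represses neuronal genes outside the nervous system, occurred in 21 unmarked regions, and that of MEIS/PBX (TGATTGACA) in 174.

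Regions with a CTCF match were nearly level with age. Of the 2473 tested unmarked regions with the match, 2.99% were gained and 0.849% lost, whereas 17.8% and 3.13% of those without it were gained and lost. Their median accessibility was 3.39 to 3.67 CPM in the YHSC libraries and 3.52 to 3.63 CPM in the OHSC libraries, which overlapped. The age change stayed within 1.5-fold for 94.9% of regions with a CTCF match and for 75.3% of those without. The SD of their log2 fold changes was 0.31, against 0.59 without the match. The difference in the gained share was present in each of 5 bins of GC content with equal numbers of regions. In the bin with the lowest GC content 3.87% of regions with the match and 26.6% of those without were gained, and in the bin with the highest, 1.85% and 7.51%. Far from H3K27ac, at over 100 kb, 12.6% of 222 regions with the match and 38.4% of 2212 without it were gained.

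The mRNA of the CTCF and cohesin genes was close to level as well. Ctcf was at 119 to 124 CPM in YHSCs (median 122, n = 4) and 103 to 131 CPM in OHSCs (median 117, n = 8), with a log2 fold change of -0.02 ± 0.05 (SE). The groups overlapped and the adjusted p was 0.860 in edgeR's quasi-likelihood test. None of the 17 tested genes of this group passed the mRNA thresholds (a change of more than 1.5-fold with an adjusted p under 0.05), at which 4.69% of all 21522 tested genes were higher and 2.83% lower in OHSCs. Smc1a, a cohesin subunit, had a log2 fold change of 0.18 (adjusted p = 0.000517), and 2 others, Stag1 and Smc3, had -0.18 (adjusted p = 0.00533) and -0.15 (adjusted p = 0.0131), all under the fold threshold.

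AP-1, RUNX and GATA matches went with a larger share of gains. AP-1 proteins are leucine zipper dimers of the FOS, JUN and BATF families that respond to growth and stress signals, RUNX1 is required for the emergence of HSCs, and GATA2 sustains them. Of tested unmarked regions with an AP-1 match, 24.5% of 3261 were gained and 1.96% lost. With a RUNX match the values were 24.8% of 3266 and 1.56%, and with a GATA match 23.5% of 1333 and 1.35%. The median accessibility of regions with an AP-1 match was 2.84 to 2.91 CPM in the YHSC libraries and 3.52 to 3.70 CPM in the OHSC libraries. RUNX regions went from 2.88 to 3.03 CPM in YHSCs to 3.65 to 3.90 CPM in OHSCs, and GATA regions from 3.08 to 3.16 CPM to 3.80 to 4.10 CPM. The libraries of the 2 ages did not overlap in any of these 3 sets. The same held for all tested nuclear unmarked regions, at 3.08 to 3.12 CPM in YHSCs and 3.47 to 3.58 CPM in OHSCs, and for those with a C/EBP match (3.03 to 3.12 and 3.55 to 3.66 CPM) or an ERG/FLI1 match (2.89 to 2.99 and 3.35 to 3.50 CPM). Part of the regions in each set passed the filter on low values only through the OHSC libraries, so these medians are a description. Without any one OHSC library, 17.7% to 20.1% of AP-1, 18.2% to 21.5% of RUNX and 16.5% to 20.6% of GATA regions were gained, and without any one YHSC library 21.9% to 23.4%, 23.2% to 24.01% and 21.6% to 21.9%. With the GC offset, 19.7% of AP-1, 19.1% of RUNX and 18.2% of GATA regions were gained. The gained share rose with the number of different matches held, from 12.4% of 14884 regions with none of the 3 to 23.2% of 6307 with 1, 29.6% of 736 with 2 and 33.3% of 27 with all 3. Among tested regions that carried a mark, 15.3% with an AP-1, 14.8% with a RUNX and 14.8% with a GATA match were gained, beside 10.1% of all tested regions.

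**Figure D1:**
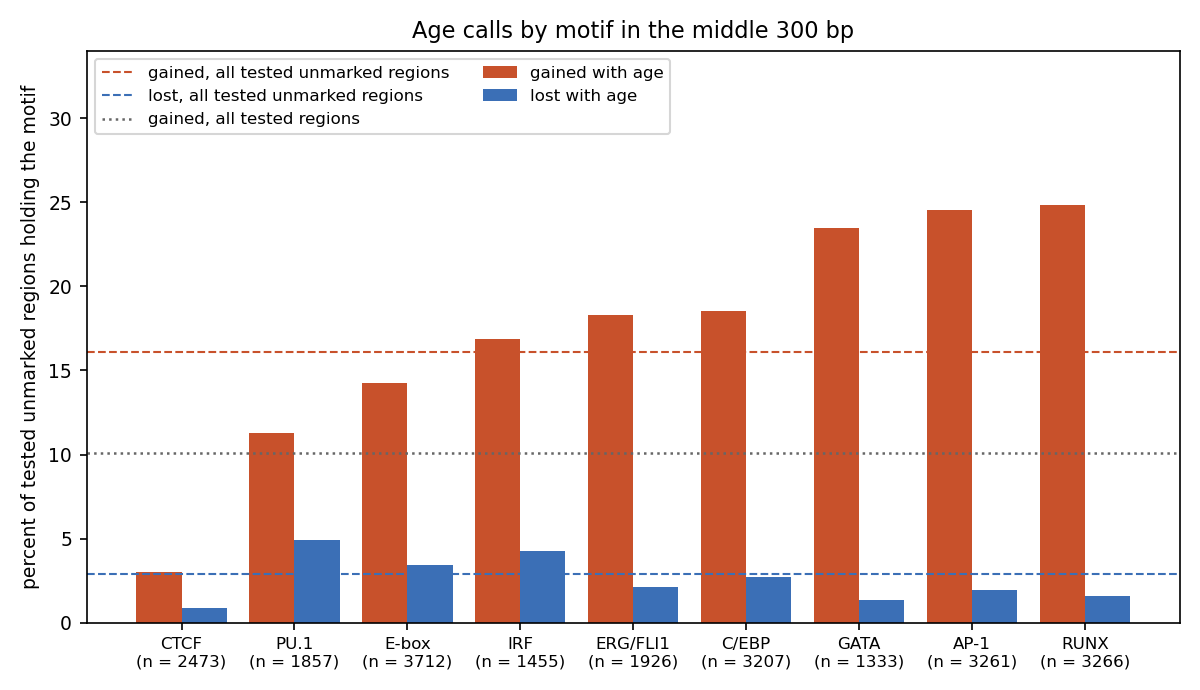
Percent of tested unmarked regions called gained (orange bars) or lost (blue bars) in OHSCs among the regions holding each motif within 300 bp around the middle, with dashed lines for all tested unmarked regions and the number of regions under each name. The gained share was 24.8% for RUNX and 24.5% for AP-1 and 2.99% for CTCF, and the lost share was 4.90% for PU.1.

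PU.1 matches went with a smaller share of gains and a larger share of losses. PU.1, encoded by Spi1, is an ETS factor that drives myeloid and B-cell programs. Of 1857 tested unmarked regions with the match, 11.3% were gained and 4.90% lost, against 16.6% and 2.68% of those without. A PU.1 match was present in 14.4% of lost regions, 5.94% of gained regions and 8.75% of those not called. The lost share was higher with the match in each of the 5 GC bins, from 1.69% against 1.04% in the lowest to 9.94% against 4.71% in the highest. It was 3.07% without YHSC library 1, 3.22% without OHSC library 6 and 8.05% without OHSC library 7. The median accessibility of PU.1 regions was 3.16 to 3.28 CPM in YHSCs and 3.27 to 3.51 CPM in OHSCs, which overlapped. The related ERG/FLI1 pattern had 18.3% gained and 2.13% lost of 1926, C/EBP 18.5% and 2.71% of 3207, IRF 16.8% and 4.26% of 1455, and the E-box 14.2% and 3.42% of 3712. Of 4239 tested regions with both a PU.1 match and a mark, 6.13% were gained and 5.05% lost.

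The mRNA of the factors that read these motifs moved in both directions. Jun, an AP-1 subunit, had 21.5 to 24.1 CPM in YHSCs (median 23.3) and 42.5 to 73.3 CPM in OHSCs (median 57.0), a log2 fold change of 1.32 ± 0.13 (SE, adjusted p = 6.94e-06, edgeR's quasi-likelihood test). The lowest OHSC library lay above the highest YHSC library. Fosl2, its partner, rose by 0.63 (adjusted p = 2.96e-05) and Runx3 by 0.67 (adjusted p = 0.00011). Batf had a log2 fold change of 0.22 and Runx1 of 0.30, both under the fold threshold, and 2 of 15 tested AP-1 and BATF genes were called higher, beside 4.69% of all tested genes. Runx2 went the other way, from 66.0 to 82.7 CPM in YHSCs to 51.2 to 63.2 CPM in OHSCs. Its log2 fold change was -0.30 (adjusted p = 0.00113, edgeR's quasi-likelihood test), also under the fold threshold. Cbfb, the other gene of the RUNX group, was at 0.09. Gata1, the erythroid and megakaryocyte GATA factor, fell from 11.6 to 15.3 CPM in YHSCs to 3.04 to 8.14 CPM in OHSCs (log2 fold change -1.41 ± 0.22, adjusted p = 0.000236), without overlap. Gata2 had a log2 fold change of 0.40, under the fold threshold.

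Among the ETS factors, Spi1 was at 70.1 to 74.2 CPM in YHSCs and 50.6 to 56.8 CPM in OHSCs, without overlap and under the fold threshold (log2 fold change -0.37 ± 0.05, adjusted p = 1.87e-06, edgeR's quasi-likelihood test). Spib, a close relative of Spi1 used by B cells and plasmacytoid dendritic cells, fell from 1.84 to 9.74 CPM to 0.0406 to 0.296 CPM (log2 fold change -4.93). Cebpb and Cebpd, leucine zipper factors of myeloid cells, rose by 0.75 and 0.68, and Pbx3, a cofactor of HOX proteins, by 1.28. Irf4, a lymphoid factor, fell by 2.05. Id1 fell by 1.08 and Id2 rose by 1.33. Both encode inhibitors of E proteins. Apart from Spi1, all genes of this paragraph passed the mRNA thresholds. None of the 4 REST group genes did.

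The spread of the age change shows the motif sets as whole distributions. At the 95th percentile, regions with a CTCF match had a log2 fold change of 0.49, all tested unmarked regions 1.27, regions with an AP-1 match 1.48 and regions with a RUNX match 1.60. At the 5th percentile the values were -0.44 for CTCF, -0.53 for all tested unmarked regions, -0.43 for AP-1 and -0.65 for PU.1. The CTCF curve was thus the steepest and the AP-1 and RUNX curves lay to the right of it in their upper part.

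**Figure D2:**
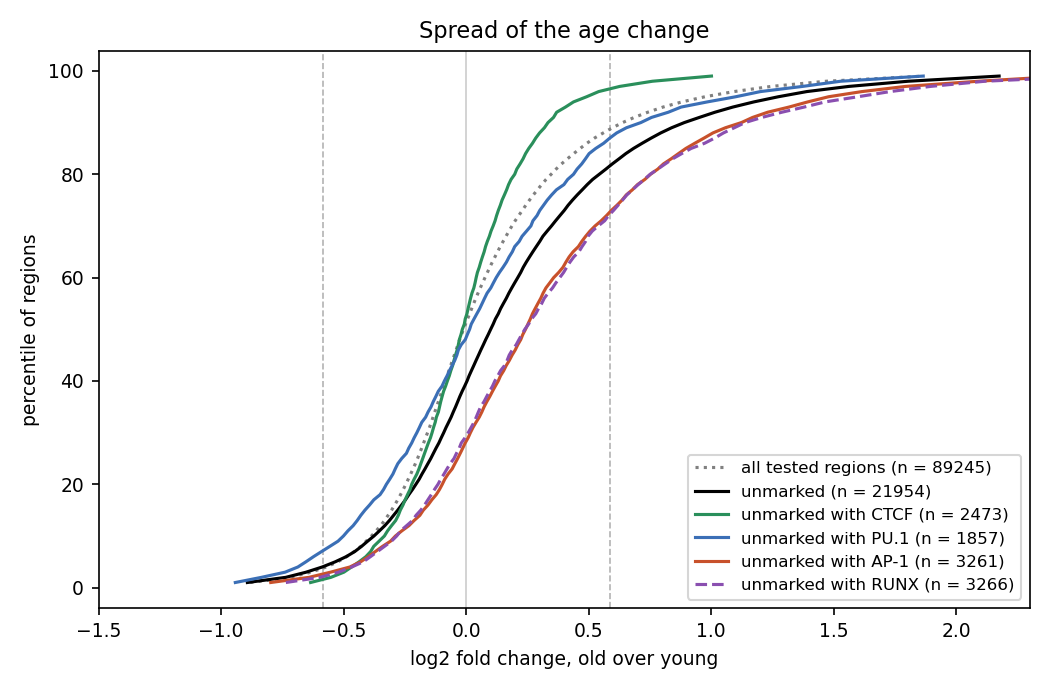
Percentile of regions (vertical axis) against log2 fold change, old over young (horizontal axis), for all tested regions and for tested unmarked regions with and without regard to motif, with dashed lines at a 1.5-fold change. The CTCF curve is the narrowest, with 94.9% of its regions within 1.5-fold.

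The gained share differed between bins of distance to genes and to H3K27ac. Within 5 kb of a transcription start, 7.79% of 3197 tested regions were gained. The gained share was 12.2% at 5 to 50 kb, 16.2% at 50 to 100 kb, 27.02% at 100 to 500 kb and 39.8% of 590 regions beyond 500 kb. The lost share was 3.78% in the nearest and 2.20% in the farthest bin. With the GC offset it was 4.07% in the nearest and 4.75% in the farthest. Regions beyond 500 kb had a median of 2.41 to 2.46 CPM in YHSC libraries and 3.27 to 3.98 CPM in OHSC libraries, and regions within 5 kb had 3.75 to 3.79 CPM and 3.78 to 4.00 CPM. Part of the distant regions passed the filter on low values only through the OHSC libraries, where they were high, so these shares and medians are a description. Without any one OHSC library, 491 to 499 regions beyond 500 kb were tested and 26.9% to 33.7% of them gained, and without any one YHSC library 571 to 581 were tested and 37.3% to 39.2% gained. Within 5 kb the corresponding shares were 6.04% to 6.71% and 7.04% to 7.31%.

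Distance to the nearest H3K27ac peak gave the same order. The gained share was 9.68% of 6549 regions within 5 kb of a peak, 22.6% at 50 to 100 kb, 34.9% at 100 to 500 kb and 44.3% of 314 regions beyond 500 kb, and in the last bin 30.9% to 39.8% of 259 to 263 regions without any one OHSC library and 40.6% to 42.8% without any one YHSC library. For the gap to any of the 4 marks the share went from 11.8% within 1 kb to 30.3% beyond 50 kb. The distant regions were also poorer in GC (median 39.3% beyond 500 kb from a start, against 48.3% within 5 kb). Over the 5 GC bins, the gained share was 24.2%, 21.1%, 15.9%, 12.6% and 6.81% from the poorest to the richest. With the GC offset, the shares ran from 6.60% to 29.5% over the bins of distance to a start, from 8.03% to 35.7% over those of H3K27ac, and from 16.2% to 8.02% over the GC bins.

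**Figure D3:**
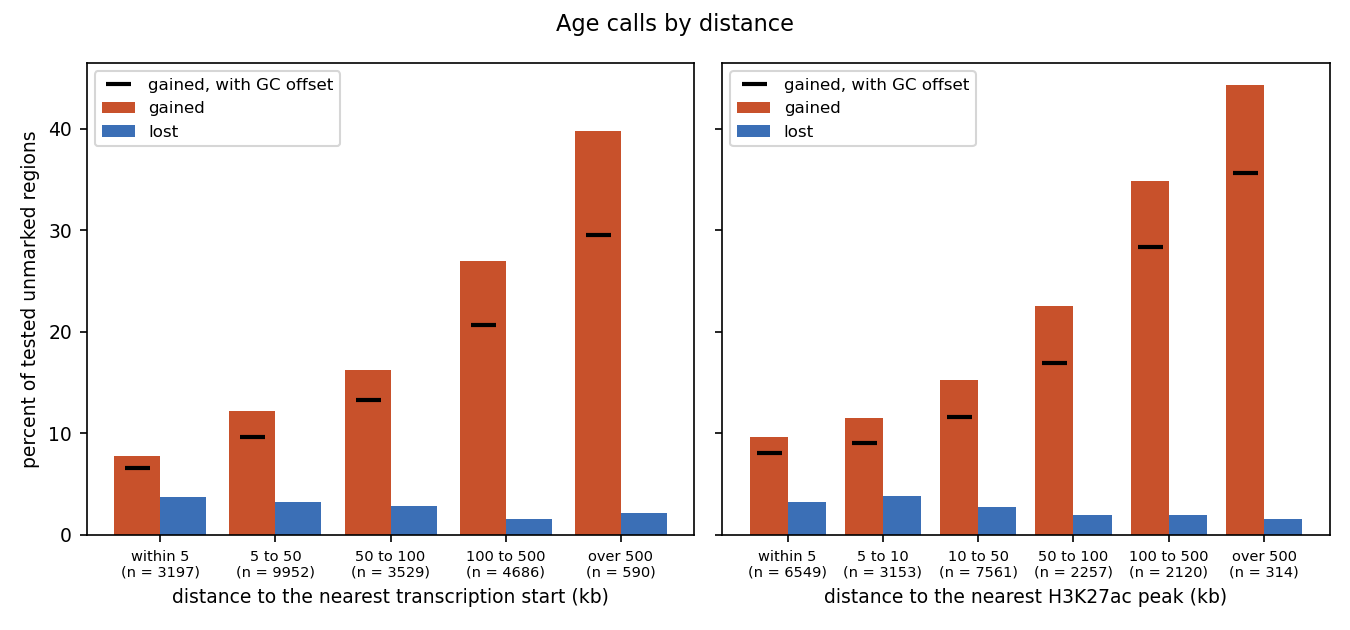
Percent of tested unmarked regions called gained (orange) or lost (blue) in OHSCs by distance in kb to the nearest transcription start (left) or H3K27ac peak (right), with black dashes for the gained share under the GC offset and region numbers under each bin. The gained share went from 7.79% to 39.8% on the left and from 9.68% to 44.3% on the right.

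Chromosomes differed in their balance. On chromosome 19, 4.66% of 472 tested unmarked regions were gained and 8.05% lost, and on chromosome 11, 8.23% and 6.11%. Chromosome 3 had 21.4% gained and 1.75% lost, and chromosome 16 had 20.9% and 1.83%. On the gene-dense chromosome 19 losses thus outnumbered gains. Chromosome 12, which carries the Igh cluster, had 16.9% gained and 6.36% lost. A promoter position gave 6.87% gained and 5.15% lost of 466 regions. A repeat at the middle of the region made little difference to the gained share, 15.4% of 3269 regions with one and 16.2% of 18685 without.

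The largest rises were at regions almost closed in YHSCs. An intergenic region on chromosome 17 (52995991 to 52996816), 393694 bp from the start of the potassium channel gene Kcnh8 and holding the RUNX match printed above, had 0.831, 0.972, 0.653 and 0.190 CPM in the YHSC libraries and 11.6, 12.7, 8.03 and 10.9 CPM in the OHSC libraries. The log2 fold change was 4.08 ± 0.22 (SE, adjusted p = 2.72e-17, edgeR's quasi-likelihood test). The 6 largest rises passed the filter only through the OHSC libraries, and 5 of the 6 largest falls, all but that in Cers6, only through the YHSC libraries. They were named for the size of the change and the lack of overlap, so their separation and p-values are a description. A region on chromosome 3 (118031173 to 118032055), 162677 bp from Snx7, which encodes a sorting nexin, had 0.158, 0.583, 0.576 and 0.533 CPM in YHSCs and 7.04, 8.99, 4.21 and 6.53 CPM in OHSCs. The log2 fold change was 3.86 ± 0.26, and the match in it is also RUNX. A region on chromosome 10 (74147717 to 74148668), in an intron of Pcdh15, a protocadherin of sensory hair cells, had 1.42, 0.907, 1.15 and 0.990 CPM in YHSCs and 14.5, 17.0, 13.7 and 15.6 CPM in OHSCs. Its log2 fold change was 3.72 ± 0.15 (adjusted p = 7.18e-28 in the same test), and it holds the printed AP-1 match 25716 bp from the nearest mark.

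The other 3 of the 6 largest rises lay near the olfactory receptor gene Olfr525 on chromosome 7 (log2 fold change 3.85), near 5430421F17Rik on chromosome 8 (3.71) and near Gpr149, an orphan receptor gene, on chromosome 3 (3.68). The Olfr525 and 5430421F17Rik regions hold RUNX matches, and the Gpr149 region holds none of the searched patterns. In each, the 4 OHSC libraries lay above the 4 YHSC libraries, as the rule for naming them requires.

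The largest falls were smaller in size. A region on chromosome 12 (20196381 to 20197131), nearest to 1700030C10Rik and with a GC content of 74.0%, had 5.46, 3.44, 3.76 and 3.31 CPM in YHSCs and 0.499, 0.849, 0.358 and 0.352 CPM in OHSCs (log2 fold change -2.96 ± 0.26). The region 65018 bp from Nap1l1, a histone chaperone gene, on chromosome 10 (111408024 to 111408395) had 2.22, 2.46, 2.46 and 2.93 CPM in YHSCs and 0.349, 0.309, 0.437 and 0.352 CPM in OHSCs. Its log2 fold change was -2.80 ± 0.28 (adjusted p = 7.2e-12, edgeR's quasi-likelihood test), and it holds the printed ERG/FLI1 match.

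The region in an intron of the ceramide synthase gene Cers6 on chromosome 2 (69047270 to 69047755) was the most accessible of the 6 largest falls. It had 12.5, 11.6, 11.1 and 11.2 CPM in YHSCs and 2.95, 1.27, 2.23 and 2.19 CPM in OHSCs, a log2 fold change of -2.46 ± 0.15 (adjusted p = 1.12e-19, edgeR's quasi-likelihood test). The libraries within an age lay close together and far from the other age. The remaining falls were near Ctr9 (-2.72), Elac2 (-2.28) and Mir6244 (-2.10). The Elac2 and Mir6244 regions hold AP-1 matches, so a match was present among the losses too.

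Among the most accessible called regions the changes were below about 1 unit on the log2 scale, apart from those near Ros1, Rprm and Serpina3h. The region 113028 bp from Rprm, which encodes a cell cycle inhibitor, went from 21.2 ± 1.05 CPM in YHSCs to 45.7 ± 6.40 CPM in OHSCs (SD, 4 libraries each). Its log2 fold change was 1.10 ± 0.08 (SE, adjusted p = 2.1e-13, edgeR's quasi-likelihood test). An intronic region of the receptor kinase gene Ros1 went from 14.9 ± 1.59 to 38.5 ± 7.74 CPM (log2 fold change 1.35). Smaller gains were found near Slc4a3 (0.68), in Sema6d (0.74) and near Ctsc (0.63). The Ctsc call did not hold with the GC offset, where the log2 fold change was 0.44, nor without YHSC library 3.

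The most accessible lost region lay in an intron of Hif3a, a member of the hypoxia-inducible factor family, 1712 bp from its start. It had 64.3, 58.3, 58.7 and 51.1 CPM in YHSCs and 34.6, 36.7, 32.0 and 35.6 CPM in OHSCs, a log2 fold change of -0.76 ± 0.06 (adjusted p = 1.35e-15, edgeR's quasi-likelihood test). The ages did not overlap. The promoter of Tvp23b fell from 44.2 ± 1.5 to 27.3 ± 1.84 CPM (-0.71), and a region 2686 bp from the serine protease inhibitor gene Serpina3h from 26.3 ± 1.78 to 12.01 ± 1.79 CPM (-1.14). Serpina3h belongs to a cluster of near-identical copies, so its reads are uncertain. The region at chr12:113277485-113278522, inside the Igh cluster, fell from 27.9 ± 0.967 to 16.9 ± 2.34 CPM (-0.74). The promoter of the sphingosine 1-phosphate transporter gene Spns2 fell by 0.68, a call that did not hold with the GC offset (-0.52).

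The most accessible unmarked regions of all were not called. The 3 mitochondrial regions had log2 fold changes of 0.05, 0.06 and 0.12. A region near 6820431F20Rik on chromosome 8 had 153 ± 7.03 CPM in YHSCs and 135 ± 6.24 CPM in OHSCs, a log2 fold change of -0.20 (adjusted p = 0.000114, edgeR's quasi-likelihood test), under the fold threshold. A region in an intron of Mocos had 120 ± 6.46 and 122 ± 6.16 CPM. The printed CTCF regions belonged to the same level group: the Itih5 region had 32.2, 36.2, 28.8 and 30.1 CPM in YHSCs and 26.8, 25.96, 30.3 and 28.3 CPM in OHSCs, which overlapped. The Cast region had 20.0 ± 1.79 and 21.7 ± 1.40 CPM, with a log2 fold change of 0.10. Another pair of CTCF regions, near 4930524O08Rik and in Nek10, had log2 fold changes of -0.05 and -0.19.

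**Figure D4:**
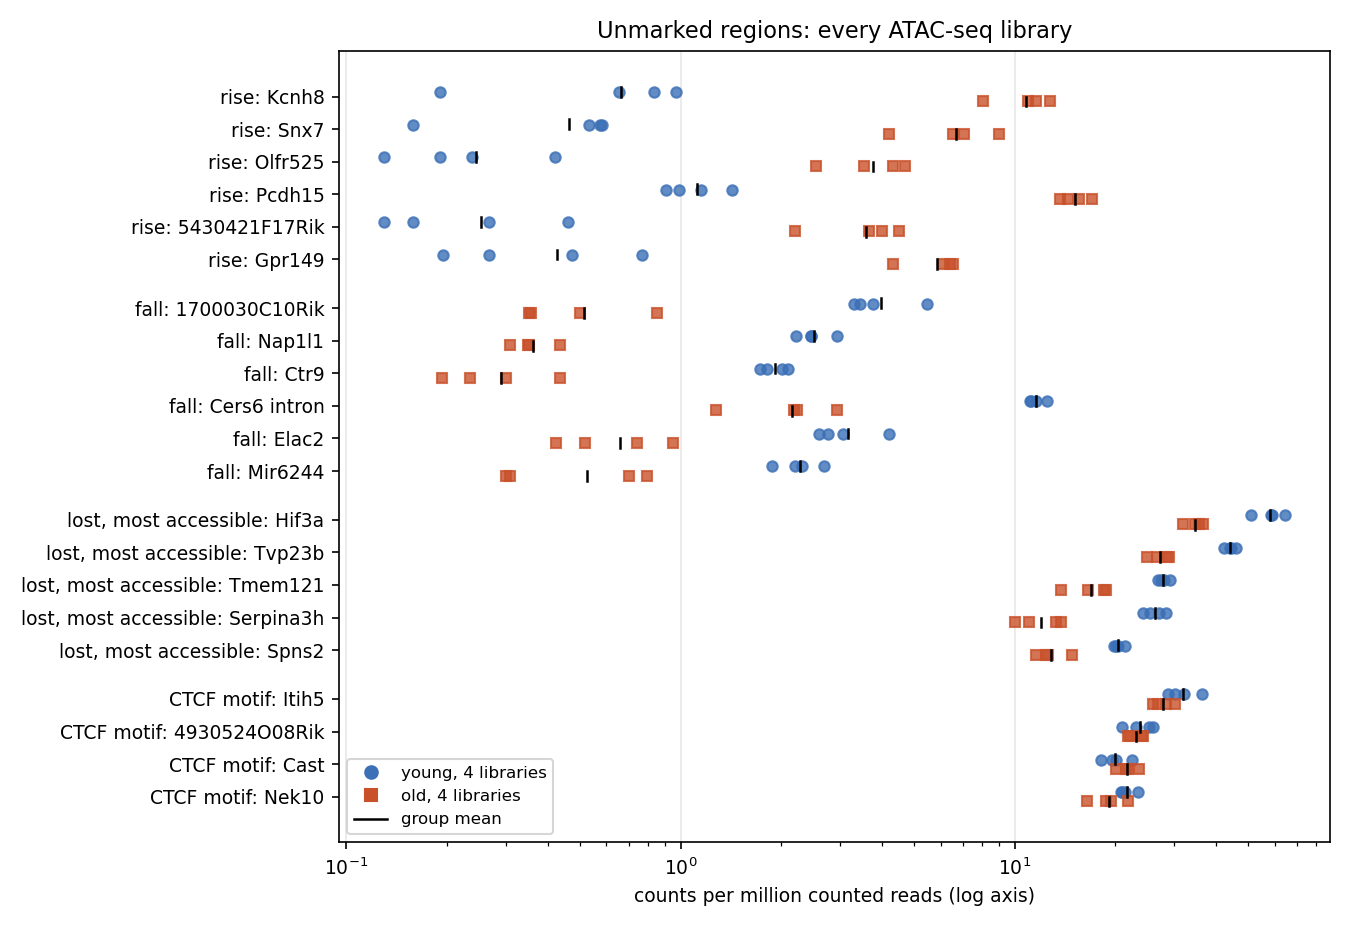
Accessibility in CPM (log axis) of named unmarked regions in each of the 4 YHSC libraries (blue circles) and 4 OHSC libraries (orange squares), with the group means as black lines, for the largest rises, the largest falls, the most accessible losses and the CTCF regions. The Kcnh8 region goes from 0.190 to 0.972 CPM in YHSCs to 8.03 to 12.7 CPM in OHSCs, and the ages overlap in the Itih5 region.

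Gained regions lay near each other more often than lost regions did. Of the 3537 gained regions, 1186 (33.5%) had another gained unmarked region within 50 kb, and of the 630 lost regions 101 (16.0%) had another lost one. In 970 windows of 1 Mb with at least 10 tested unmarked regions, more were gained than not in 22, and no region was called in 106. The gained set was also the larger one, which by itself gives more neighbours.

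The genes with the most gained unmarked regions nearest to them included long or isolated genes with little or no mRNA in HSCs. Cntnap2, a neuronal adhesion gene, had 72 unmarked regions, of which 38 were tested, 16 gained and none lost (median log2 fold change 0.48). With the GC offset 10 of them were gained. The most changed of these, chosen after its values were seen, lies upstream of the gene on chromosome 6 (44849047 to 44850152) and had 1.94, 1.56, 1.57 and 2.02 CPM in YHSCs and 9.93, 15.7, 6.44 and 8.80 CPM in OHSCs. Cntnap2 mRNA was at 1.19 ± 0.597 CPM in YHSCs and 1.48 ± 0.662 CPM in OHSCs and did not pass the test (adjusted p = 0.525, edgeR's quasi-likelihood test).

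Near Fgf12, a fibroblast growth factor homologue that acts on sodium channels, 10 of 13 tested regions were gained, and its mRNA was higher in OHSCs, 1.41 ± 0.646 against 2.70 ± 0.885 CPM (log2 fold change 0.99 ± 0.27, adjusted p = 0.0101, edgeR's quasi-likelihood test). Further such genes were 4930404A05Rik (15 of 18), Dsc3, a desmosomal cadherin gene (11 of 13), Gm10649 (11 of 13), Fign, a microtubule-severing enzyme gene (10 of 11), and Mir7232 (10 of 12). None of these 5 had mRNA that passed the test, and 3 of them were too low to be tested.

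Taken over a list of 40 long neuronal genes, 112 of 307 tested regions nearest to them were gained (36.5%, beside 16.1% of all tested unmarked regions) and 1 was lost, with a median log2 fold change of 0.41. Of the 39 list members tested in mRNA, Tmem132b was higher and Robo1, an axon guidance receptor gene, lower in OHSCs, beside 4.69% higher and 2.83% lower of all tested genes. The list was chosen with earlier results of these data known, and its count is a description.

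The genes with the most lost unmarked regions were Tmem121, Maf, Aldh1a7 and Mir6991. Tmem121, the gene next to the constant end of the Igh cluster, had 7 of 9 tested regions lost and a median log2 fold change of -0.73. Its mRNA was higher in OHSCs (log2 fold change 0.71 ± 0.18, adjusted p = 0.00609, edgeR's quasi-likelihood test). Maf, a leucine zipper factor of T cells and macrophages, had 5 of 14 tested regions lost and none gained, while its mRNA rose from 4.97 to 7.18 CPM in YHSCs to 16.7 to 23.0 CPM in OHSCs (1.70 ± 0.11). Aldh1a7, an aldehyde dehydrogenase gene, had 3 of 3 lost and lower mRNA (-1.56 ± 0.33, adjusted p = 0.001 in the same test). Mir6991 had 3 of 3 lost. Another 3 genes also had 3 regions lost: Otulinl (3 of 4, with lower mRNA, -0.96), Cdca7l (3 of 5) and Fhit (3 of 7, with 1 gained). The mRNA of Cdca7l (-0.14) and Fhit (-0.03) was not called. Regions and mRNA thus moved in opposite directions at Tmem121 and Maf and in the same direction at Aldh1a7 and Otulinl.

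The immunoglobulin heavy chain cluster (Igh) on chromosome 12 (113254830 to 116010093) held both directions side by side. It carries the constant, joining and diversity genes at its lower coordinates and the variable (V) genes over the rest, and B cells join 1 of each to make an antibody chain. In the first 1 Mb outside the cluster on the constant side, 12 of 32 tested unmarked regions were lost and 1 gained (median log2 fold change -0.54). From the constant genes to the first V gene 3 of 6 were lost, and over the first 250 kb of V genes 2 of 6, with none gained in either. Over the next 1000 kb of V genes 15 of 19 were gained and none lost, with a median log2 fold change of 1.71 and a range of 0.12 to 2.74. At the farther V genes 6 of 29 were gained and 2 lost, and in the 1 Mb after the cluster 1 of 8 was gained and 4 lost. These counts stand beside 16.1% gained and 2.87% lost over all tested unmarked regions. The boundaries of these V gene stretches were set with the values known.

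Single regions show the contrast. The region with the largest rise, chosen after its values were seen (chromosome 12, 114559920 to 114560274), had 0.475, 0.648, 0.384 and 0.762 CPM in YHSCs and 4.24, 4.32, 3.94 and 2.78 CPM in OHSCs. It passed the filter only through the OHSC libraries, as did 5 others of the 15 gained regions, which fixes the direction of these 6. With the GC offset the same number, 15, was gained. Without any 1 of the OHSC libraries 9 of 13 tested regions were gained, since the filter of 4 libraries then passes fewer regions. V genes are a family of similar copies and only uniquely mapped reads were counted, so single values in the cluster are uncertain.

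Of 15 tested B-cell and plasma cell markers, 8 were lower in OHSCs and none higher, beside 2.83% lower and 4.69% higher of all tested genes, and the summed level of the 16 listed markers was 777 to 1437 CPM in YHSCs and 405 to 895 CPM in OHSCs, which overlapped. The other 7, among them Vpreb1 (log2 fold change -0.19) and Igll1 (-0.04), did not pass the test. Cd79a, a subunit of the B-cell receptor, was at 12.3 to 31.8 CPM in YHSCs and 0.310 to 1.35 CPM in OHSCs. Pax5, which commits cells to the B lineage, was at 0 in 1 OHSC library and Mzb1 in 2. Of the 7 tested unmarked regions nearest to these markers, none was called. The mRNA libraries are not the ATAC-seq libraries, and the part of B-lineage cells in the Igh values was not tested. The HSC markers Kit (1790 to 1917 CPM in YHSCs and 1573 to 1873 CPM in OHSCs) and Hlf were abundant at both ages. Of the 10 HSC markers, 1, Slamf1, was called higher and none lower, beside 4.69% higher and 2.83% lower of all tested genes. Slamf1 (69.1 to 74.8 and 104 to 142 CPM) and Procr (181 to 199 and 245 to 268 CPM) were higher in OHSCs without overlap. Hlf (623 to 653 and 532 to 612 CPM) and Ctnnal1 (77.4 to 87.6 and 58.9 to 77.0 CPM) were lower without overlap.

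**Figure D5:**
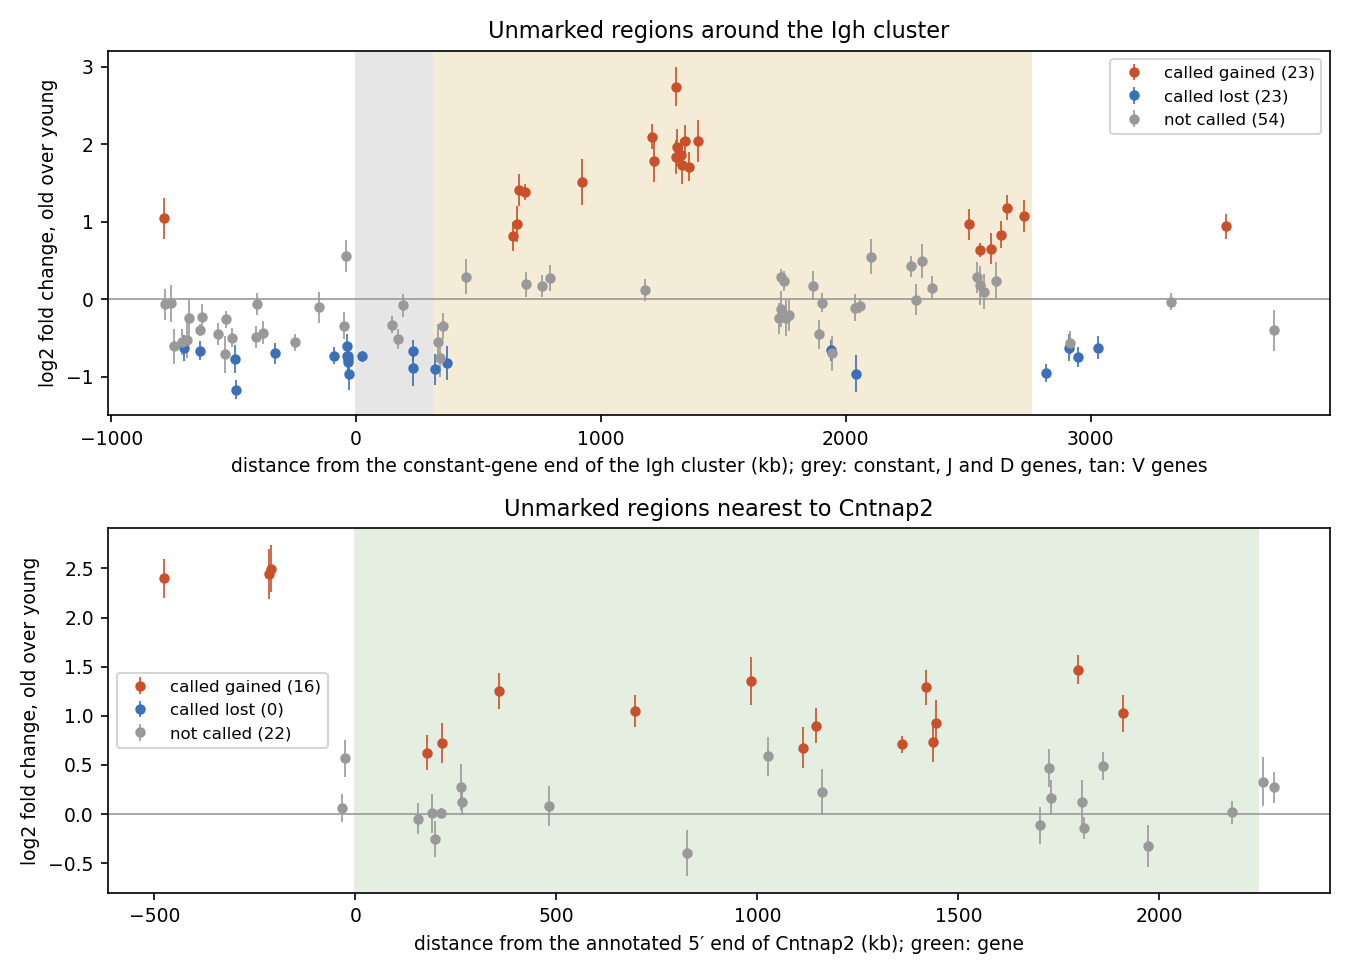
Log2 fold change, old over young, with SE bars, of each tested unmarked region against distance in kb from the start of the Igh cluster (top) or of Cntnap2 (bottom). In the top panel grey shading marks the constant, joining and diversity genes and beige the V genes, where 15 of 19 regions were gained in the 1000 kb that follow the first 250 kb. In the bottom panel shading marks the gene, with 16 of 38 regions gained and none lost.

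Of 36 tested regions nearest to a list of 32 HSC regulators, 1 was gained (2.78%, beside 16.1% of all tested unmarked regions) and none lost (beside 2.87%). It lies 180600 bp from Mllt3, which maintains HSC self-renewal, on chromosome 4 (87625333 to 87626115), and went from 1.85 ± 0.382 to 5.62 ± 0.455 CPM (log2 fold change 1.56 ± 0.17, adjusted p = 9.28e-11, edgeR's quasi-likelihood test). Mllt3 mRNA was at 287 to 315 CPM in YHSCs and 301 to 346 CPM in OHSCs, which overlapped.

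Of 34 tested regions nearest to genes of the HSC aging signature, 8 were gained (23.5%, beside 16.1% of all tested unmarked regions) and none lost, and 26 were not called, with a median log2 fold change of 0.33. The mRNA of 29 of 31 tested genes of the list was higher in OHSCs, but the list is known from aged HSCs and is no independent evidence of direction. The region 17393 bp from Alcam, an adhesion molecule gene, had 0.870, 1.23, 0.998 and 0.914 CPM in YHSCs and 3.39, 3.47, 5.05 and 3.01 CPM in OHSCs (log2 fold change 1.90 ± 0.22), and holds the printed AP-1 match. Alcam mRNA was at 62.2 ± 6.34 CPM in YHSCs (n = 4) and 162 ± 17.2 CPM in OHSCs (n = 8). The region passed the filter on low values only through the OHSC libraries, as did those near Itgb3, Tm4sf1 and Enpp5 and the second region of Ehd3, so their separation is a description.

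The region near Itgb3, an integrin of megakaryocytes and platelets, had a log2 fold change of 1.65, and its mRNA rose from 90.1 ± 12.3 to 419 ± 45.0 CPM. The region near Tm4sf1, a tetraspanin-like membrane protein gene, had 1.80 and its mRNA 1.98. Enpp5 had 1.33 at the region and 1.45 in mRNA, Gda, a guanine deaminase gene, 0.76 and 1.62. Ehd3, which acts in endosomal transport, had 2 gained regions (0.84 and 0.97) and an mRNA change of 2.08. The first of these calls did not hold without YHSC library 3 or without OHSC library 8. The region near Mmrn1, a platelet and endothelial protein gene, had 0.72, and its mRNA change of 0.23 lay under the fold threshold. The Mmrn1 call did not hold with the GC offset (adjusted p = 0.0174 in edgeR's quasi-likelihood test) nor without any of YHSC libraries 2 and 3 and OHSC libraries 6 and 8.

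Other blood lists gave small numbers. Of regions nearest to megakaryocyte and platelet genes, 6 of 30 tested were gained and none lost. Of those nearest to lymphoid genes, 3 of 60 were gained and 6 lost, and 10 of the 25 tested genes had lower mRNA and 1 higher, beside 2.83% lower and 4.69% higher of all tested genes. Of those 10, Cd79a, Cd79b, Pax5, Ebf1, Blnk and Ly6d are also among the B-cell markers described above. Myeloid genes had 2 of 28 gained, the AP-1 and BATF genes themselves 1 of 31 gained and 4 lost, and the CTCF and cohesin genes 2 of 22 gained. The shares stand beside 16.1% gained and 2.87% lost over all tested unmarked regions.

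Genes nearest to gained regions were higher in mRNA more often than genes in general. Within 100 kb, the gained regions had 982 nearest genes that could be tested in mRNA, of which 141 (14.4%) were higher and 39 (3.97%) lower in OHSCs. For lost regions, 14 of 380 (3.68%) were higher and 43 (11.3%) lower. Over the 5756 genes nearest to any tested unmarked region, 7.09% were higher and 5.02% lower, and over all tested genes 4.69% and 2.83%. Most nearest genes thus passed the test in neither direction.

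Among the genes near gained regions, the largest mRNA rise was that of Rassf10, a gene of the Ras association family. It went from 0.304 ± 0.244 to 6.66 ± 1.61 CPM (log2 fold change 4.49 ± 0.35, adjusted p = 2.94e-08, edgeR's quasi-likelihood test), and a region 33698 bp from its start on chromosome 7 had 2.59. Agtr1a, the angiotensin II receptor gene, went from 2.33 ± 0.336 to 19.2 ± 2.85 CPM, with a region 3549 bp away at 1.65. Muc1, a membrane mucin gene, had 3.41 in mRNA and 0.99 at the region, and the aldehyde dehydrogenase gene Aldh3a1 3.36 and 1.00. Hbb-bs, an adult beta globin gene, had 3.54 in mRNA, with 1.57 to 4.39 CPM in YHSCs and a wide range of 10.8 to 95.2 CPM in OHSCs, and 0.79 at the region. Of the 10 erythroid markers, 4 were higher and 3 lower, beside 4.69% higher and 2.83% lower of all tested genes, with a summed level of 1540 to 1651 CPM in YHSCs and 1254 to 1739 CPM in OHSCs. Their part in the globin value was not tested, and Hbb-bs shares sequence with Hbb-bt.

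Among the genes near lost regions, Ccr7, a homing receptor gene of lymphocytes and dendritic cells, had the largest change in mRNA, from 2.26 ± 0.697 to 0.260 ± 0.135 CPM (log2 fold change -3.06 ± 0.33), and the region -0.77. Gimap7, a lymphocyte GTPase gene, fell from 5.94 ± 1.01 to 0.924 ± 0.367 CPM, and a region 45 bp from its start had -1.09. Nrk, which encodes a kinase, fell from 33.2 ± 1.78 to 5.99 ± 1.13 CPM (-2.43 ± 0.10, adjusted p = 4.56e-15, edgeR's quasi-likelihood test), with a region 1221 bp from its start on the X chromosome at -1.59. Chst3, a chondroitin sulfotransferase gene, had -2.68 in mRNA and -0.87 at the region, and Cmah, a sialic acid hydroxylase gene, -2.13 and -1.36. The regions near Rassf10 and Aldh3a1 passed the filter on low values only through the OHSC libraries and those near Chst3, Nrk and Cmah only through the YHSC libraries, which fixes their direction. The genes were chosen for the size of their mRNA change in either direction.

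H3K27ac was read at peaks outside the unmarked regions. At 1203 peaks within 10 kb of a gained region, the median log2 ratio of the old to the young signal was 0.22, and the 4 possible pairs of 1 old and 1 young library ranged from 0.10 to 0.37. The old signal was the higher at 71.7% of these peaks. At 444 peaks near lost regions the median was -0.04 (pairings -0.13 to 0.06, 42.6% higher), at 8498 peaks near regions not called 0.06, and over all 39557 peaks 0.06 (57.2% higher). The shift of all peaks is part of each value. Relative to it, peaks near gained regions were at 0.16 and peaks near lost regions at -0.10. With libraries scaled to the same median, the medians themselves were 0.13 and -0.13, and that of all peaks was -0.035. Relative to all peaks they were 0.17 and -0.10. Libraries of 2 against 2 cannot reach an exact p below 0.05, so no test was made.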

How the data were processed

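ATAC-seq was analysed in 4 young and 4 old HSC libraries, mRNA-seq in 4 young and 8 old, and H3K27ac ChIP-seq in 2 of each age. Per the study's methods, the authors trimmed ATAC-seq reads with cutadapt, aligned them to mm10 with BWA, kept de-duplicated, uniquely mapped reads outside blacklisted regions, and merged MACS peaks of both ages. The sources used here do not say whether read ends were shifted for Tn5. These deposited tables hold raw counts per region, 15427933 to 26260337 per young and 20033166 to 25920194 per old library. The deposited mRNA values are counts per gene from STAR and featureCounts (GENCODE M22), 20475764 to 24654742 per library. The deposited H3K27ac values are signal per library, normalized by the authors to a common number of reads. Domains of H3K27me3 and H3K36me3 were used as deposited. H3K9me3, knockdown and progenitor samples were not analysed here, and 8 columns of per-sample values that matched no listed sample, 4 of them old HSC ATAC-seq counts, were not used.

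Counts were fitted with edgeR 4.0.16 in R 4.3.3 (robust quasi-likelihood, TMM, Benjamini-Hochberg adjustment over all tested features), and DESeq2 1.42.0 was an alternative. The GC offset used medians over 40 bins of GC content. Places came from GENCODE and 45756 curated RefSeq transcripts, with sequences from the GRCm38 genome. No group had libraries that agreed within sampling noise (chi-square per degree of freedom 2.21 to 3.64). The rule for named regions took the 6 largest rises and falls without overlap, the 5 most accessible gained, lost and of any call, up to 8 near HSC lists, the 8 and 4 nearest genes with the most gained and lost regions (ties by fewest tested regions), called factor genes and up to 5 nearest genes a direction. The members and lists were chosen with earlier results of these data known. The young and old mRNA libraries share replicate numbers 1 to 4, but the deviations of same-numbered libraries correlated at 0.0374, -0.117, 0.0021 and -0.225, so the numbers pair nothing. Alternatives were another tool, scaling, filter, fold threshold, GC offset, mark distance, motif window and leaving out each library. Some named genes are not reported here.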

Additional observations from a re-analysis of the deposited data

Results flagged for a closer look

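Values with 1 library apart from the rest of its group were sought by Dixon's test in 158 groups of 4 or 8 libraries, of which chance flags about 1 in 20, and 6 met it. In the Snx7 region 1 YHSC library was at 0.158 CPM and the next at 0.533 CPM. The median accessibility of regions with a CTCF match was 3.39 CPM in 1 YHSC library and 3.65 CPM in the next. For regions beyond 500 kb from a start it was 2.46 CPM in 1 YHSC library and 2.41 CPM in the next, a small gap in a narrow group. Irf4 mRNA was at 2.57 CPM in 1 YHSC library and 1.13 CPM in the next. In OHSCs, 1 library had 95.2 CPM of Hbb-bs mRNA, with 44.1 CPM in the next, and 1 had 8.58 CPM of Nrk mRNA, with 6.31 CPM in the next. The ages did not overlap in the Snx7 region, Irf4, Hbb-bs or Nrk with these libraries included.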

How the results depend on the processing

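Of 30 called named regions, 26 kept their call in each alternative in which they were tested, 4 lost it in at least 1, and none changed direction. For 15 of the 30, 4 of the left-out libraries gave no value, since the region then missed the filter. Counts of gained and lost regions were 3320 and 558 with DESeq2, 3525 and 634 with its size factors. Lost regions numbered 1009 without the CPM filter, where all 38299 regions are tested. A fold change above 2 left 1804 gained and 141 lost. The median log2 fold change was 0.12 both without the filter (0.1161) and with no mark within 1 kb (0.1188), and 0.021 with the GC offset. Leaving out 1 library gave 2360 to 3282 gained, 407 to 756 lost and a median of 0.08 to 0.12 (0.0813 to 0.1154). The shares were 11.5% to 15.4% gained and 1.91% to 3.70% lost, beside 7.63% to 9.56% and 2.25% to 3.39% of all tested regions. With no mark within 1 kb the share of reads was 13.4% in YHSCs and 14.9% in OHSCs, and of nuclear reads with all unmarked regions 11.5% and 12.9%. In a 200 bp window matches fell to 8.03% for CTCF, 11.8% for AP-1, 11.2% for RUNX, 4.10% for GATA and 7.16% for PU.1, and 1 more fixed base left CTCF at 3.85%. These follow from the smaller windows and stricter pattern. Without single libraries the lost share with PU.1 was 3.07 to 8.05%, Igh V gene gains 9 to 15 and H3K27ac near lost regions -0.11 to 0.06, with 0.06 (0.0621) without young library 1. The cause was not tested. The nuclear share, and the GC offset, the left-out libraries and the other window for motif, distance and Igh shares, were chosen after seeing the data.

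No paired analysis was possible because ATAC-seq libraries carry the numbers 1 to 4 in the young and 5 to 8 in the old group. With the replicate block, genes near gained regions were higher in 139 and lower in 33 cases and those near lost regions in 14 and 34, of 901 higher and 520 lower in all. Leaving out 1 young mRNA library gave 135 to 143 and 33 to 39 near gained regions and 14 to 15 and 38 to 42 near lost regions. The counting depth limits the filter: regions under 1.5 CPM were not called either way, and no difference there is shown to be absent.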
